A study of Mus musculus with 10 samples.

Results

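The genes described here encode the MHC class II antigen presentation machinery of the mouse: the chains H2-Aa, H2-Ab1, H2-Eb1 and H2-Eb2, the peptide-exchange chains H2-DMa and H2-DMb1, their inhibitor chains H2-Oa and H2-Ob, the invariant chain Cd74 and the transactivator Ciita. These 10 genes were listed by function, with earlier results of these data known. Of the 22180 genes tested, 9 were members with a probe set of their own. The only probe set of Cd74 also names a microRNA gene, so Cd74 was not analysed here. They were measured in subepithelial mesenchyme of the trachea from 5 mice killed 4 days after breathing chlorine (exposed: 235 ppm for 1 hr) and from 5 mice that had no exposure (unexposed). All 10 animals were wild-type males of the inbred strain FVB/NJ, aged 9 weeks. Laser capture took the tissue out of stained frozen sections, and the material of a mouse was combined over its sections. Each mouse gave 1 Affymetrix array, so the number of arrays limits the precision.

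MHC class II molecules are pairs of an alpha and a beta chain that show peptides from endosomes to CD4 T cells. In the endoplasmic reticulum they fold around the invariant chain, which endosomal proteases then cut down to a short fragment held in the peptide groove. The DM pair removes that fragment and edits the peptides that replace it, and the DO pair holds DM back, mostly in B cells. Dendritic cells, B cells and macrophages make class II constitutively or after activation, under the control of Ciita, and interferon gamma can switch Ciita on in other cells.

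Ciita does not bind DNA itself. It docks on factors that sit on the X and Y boxes of class II promoters, the RFX complex on X and the NF-Y complex on Y. Promoter windows in the RefSeq table (assembly GRCm38.p6, the C57BL/6J reference and not FVB/NJ), which run from 250 bases before to 50 after an annotated start, were searched on both strands for the core letters AGNNACNGATG of an X box and GATTGG of a Y box, which do not overlap each other. Windows were found for 7 members (8 windows), and H2-Ab1, Cd74 and Ciita had none in the table. The Y letters were in a window of all 7 of these genes, against 16.1% of the 32851 windows of all genes. The X letters were in those of 4 genes (H2-Oa, H2-DMb1, H2-Eb1 and H2-Eb2), against 0.968% of all windows. X letters followed by Y letters on the same strand within 60 bases stood in 3 of them (H2-DMb1, H2-Eb1 and H2-Eb2), against 0.0183% of all windows, which is 6 windows. The letters stand for boxes of class II promoters, so these counts are descriptions, and they set genes beside windows. Stretches around the Y letters of 5 genes are printed. They set H2-Aa, which fell after chlorine, beside H2-Eb1, H2-Eb2, H2-DMb1 and H2-Ob, which did not pass the test. Not printed are H2-DMa, which also fell and holds Y letters, and H2-Oa, which did not pass and holds both. The X letters are strict, so a near match is not marked and a stretch without them may still hold an X box. No link between these letters and the changes was tested. Capitals mark the X and Y letters, each stretch reads 5′ to 3′ along the gene, and a match is a description of letters and not a mapped binding site.
H2-Aa (chr17:34287863-34287915, minus strand): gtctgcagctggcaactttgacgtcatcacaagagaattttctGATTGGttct
H2-Eb1 (chr17:34305764-34305816, plus strand): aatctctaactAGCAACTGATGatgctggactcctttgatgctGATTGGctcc
H2-Eb2 (chr17:34325531-34325583, plus strand): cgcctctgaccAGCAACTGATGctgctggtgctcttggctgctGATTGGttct
H2-DMb1 (chr17:34153086-34153138, plus strand): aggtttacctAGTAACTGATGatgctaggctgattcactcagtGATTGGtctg
H2-Ob (chr17:34238804-34238856, plus strand): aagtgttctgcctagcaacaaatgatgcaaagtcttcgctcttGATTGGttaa
In H2-Eb1 and H2-Eb2 the X and Y letters were 21 bases apart, and in H2-DMb1 22 bases.

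**Figure D1:**
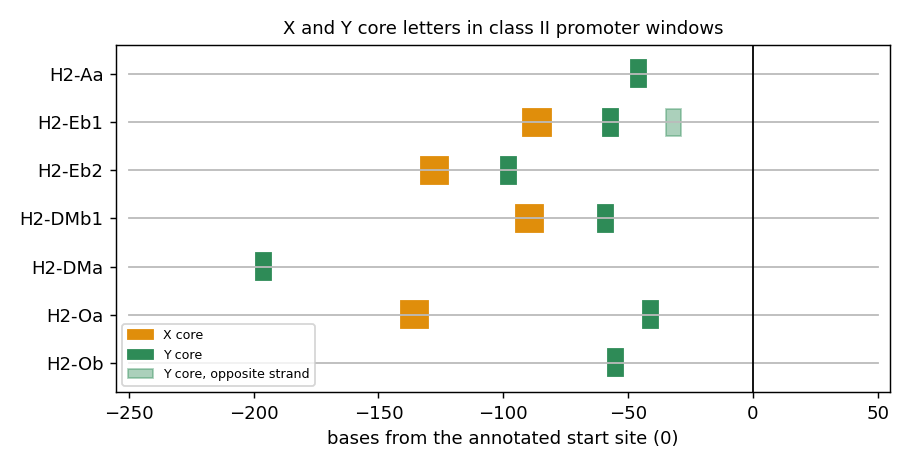
Positions of the X core letters (orange) and Y core letters (green, paler on the opposite strand) in bases from the annotated start site, for the 7 class II genes with a promoter window. The Y letters lie within 101 bases of the start in every gene but H2-DMa, and 4 genes also hold the X letters upstream of them.

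The captured tissue carried transcripts of mesenchyme and also of epithelium and leukocytes. The mean log2 intensity of 9 fibroblast and mesenchyme markers was 9.90 to 10.6 in exposed mice and 9.64 to 9.93 in unexposed mice. That of 9 epithelial markers was 8.05 to 9.77 in exposed mice, lowest in exposed mouse 3, and 8.91 to 9.22 in unexposed mice. Calls were made at an adjusted p under 0.05. Of all genes tested, 5.85% rose and 4.97% fell after chlorine, and the median log2 change was -0.0035. Array medians lay between 5.10 and 5.18. No detection limit was at hand, so a low value cannot be told from absence, and values of different genes are not compared with each other.

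After chlorine, 3 of the 9 measured class II genes fell, against 4.97% of all genes, 0 rose and 6 did not pass the test. Those that fell were both chains of the classical A molecule, H2-Aa and H2-Ab1, and the alpha chain of the exchange factor, H2-DMa. For these 3 genes every exposed mouse lay below every unexposed mouse, against 5.06% of all genes that were separated in this direction. The median log2 change of the 9 genes was -0.15, and 8 of the 9 changes were below 0. The genes were chosen with earlier results of these data known, so these counts are descriptions. In captured tissue, fewer cells that carry class II and less class II RNA per cell cannot be told apart.

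H2-Ab1, the beta chain of the A molecule, had log2 intensities of 7.06, 7.73, 7.51, 7.98 and 7.03 in exposed mice 1 to 5, against 8.70, 8.51, 8.79, 8.83 and 8.02 in unexposed mice 1 to 5. The groups did not overlap, but exposed mouse 4 and unexposed mouse 5 came within 0.036 of each other. The means were 7.46 ± 0.42 in exposed mice and 8.57 ± 0.33 in unexposed mice (SD, n = 5 each). This is a log2 change of -1.11 (SE 0.21, 95% interval -1.57 to -0.65, adjusted p = 0.00626), so that H2-Ab1 was 2.16-fold higher in unexposed mice. Of all genes tested, 1.88% had a change as low or lower.

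H2-Aa, the alpha chain that pairs with it, stood at 5.12, 6.37, 5.76, 6.41 and 6.01 in exposed mice, against 7.41, 7.14, 7.11, 7.51 and 6.72 in unexposed mice. Exposed mouse 1 was lowest of all and exposed mouse 4 again highest of its group, below unexposed mouse 5. The means were 5.94 ± 0.53 in exposed mice and 7.18 ± 0.31 in unexposed mice (SD, n = 5 each), a log2 change of -1.24 (SE 0.24, 95% interval -1.77 to -0.72, adjusted p = 0.0066). H2-Aa was thus 2.37-fold higher in unexposed mice, and 1.54% of all genes changed as low or lower.

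H2-Eb1, the beta chain of the E molecule, showed no such separation. Its values were 4.15, 4.47, 4.57, 5.54 and 4.07 in exposed mice, against 4.20, 4.27, 4.88, 4.75 and 4.73 in unexposed mice. Exposed mouse 4 lay above every unexposed mouse and exposed mice 1 and 5 below every one of them. The log2 change was -0.004 with a 95% interval of -0.57 to 0.56 (adjusted p = 0.995), and without exposed mouse 4 it was -0.25 (adjusted p = 0.466). H2-Eb2, a second E beta gene, changed by 0.14 (95% interval -0.37 to 0.65, adjusted p = 0.786), with 3.39 to 4.61 in exposed mice and 3.12 to 3.92 in unexposed mice, again highest in exposed mouse 4. H2-Eb1 and H2-Eb2 are related in sequence, so array probes may not fully separate them. Whether the probes match the FVB/NJ sequence of the class II genes was not checked. The difference between the A and E chains was not tested. H2-Ea, which lies beside H2-Eb2 and is annotated as a transcribed pseudogene in the reference strain, is not among the 10 genes and was added after its values were seen. It had 4.38, 4.79, 5.04, 5.90 and 4.41 in exposed mice, against 5.79, 6.04, 5.98, 6.43 and 4.93 in unexposed mice. Its log2 change of -0.93 did not pass (SE 0.32, adjusted p = 0.0914). Leaving out exposed mouse 4 brought it past the threshold (-1.18, adjusted p = 0.0249), as did leaving out unexposed mouse 5 (-1.16, adjusted p = 0.0347).

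The exchange factor DM differed between its chains in what passed the test. H2-DMa had 6.05, 6.26, 6.32, 6.27 and 5.83 in exposed mice, against 6.96, 6.69, 6.62, 6.996 and 6.54 in unexposed mice. The highest exposed mouse lay 0.22 below the lowest unexposed mouse, and the spread was the same in both groups. Means were 6.15 ± 0.20 in exposed mice and 6.76 ± 0.20 in unexposed mice (SD, n = 5 each), with a log2 change of -0.61 (SE 0.13, 95% interval -0.90 to -0.33, adjusted p = 0.011), or 1.53-fold higher in unexposed mice. Its partner H2-DMb1 stood at 4.24, 3.71, 3.61, 3.69 and 3.31 in exposed mice, against 3.71, 3.85, 3.82, 4.04 and 3.87 in unexposed mice. Here exposed mouse 1 was above, and exposed mice 3, 4 and 5 below, every unexposed mouse, and the change of -0.15 did not pass (95% interval -0.48 to 0.19, adjusted p = 0.626). The interval of H2-DMb1 overlaps that of H2-DMa, and the difference between the chains was not tested.

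The inhibitor chains of DM and the transactivator did not pass the test either. H2-Oa ranged from 4.50 to 5.60 in exposed mice and from 4.67 to 5.62 in unexposed mice, with a log2 change of -0.10 (95% interval -0.60 to 0.40, adjusted p = 0.847). H2-Ob ranged from 3.75 to 4.08 in exposed mice and from 3.65 to 4.21 in unexposed mice and changed by -0.05 (95% interval -0.30 to 0.20, adjusted p = 0.855). Ciita, the master regulator of class II transcription, had 5.80, 5.69, 6.20, 6.06 and 5.53 in exposed mice, against 5.93, 5.88, 6.16, 6.24 and 6.25 in unexposed mice. Exposed mice 1, 2 and 5 were below every unexposed mouse while exposed mice 3 and 4 lay among them, and the change of -0.23 did not pass (SE 0.14, 95% interval -0.54 to 0.07, adjusted p = 0.353). Group means of H2-Eb1, H2-Eb2, H2-DMb1, H2-Oa and H2-Ob all lay at or below 5.09, under the median of every array, where small changes are hardest to see.

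**Figure D2:**
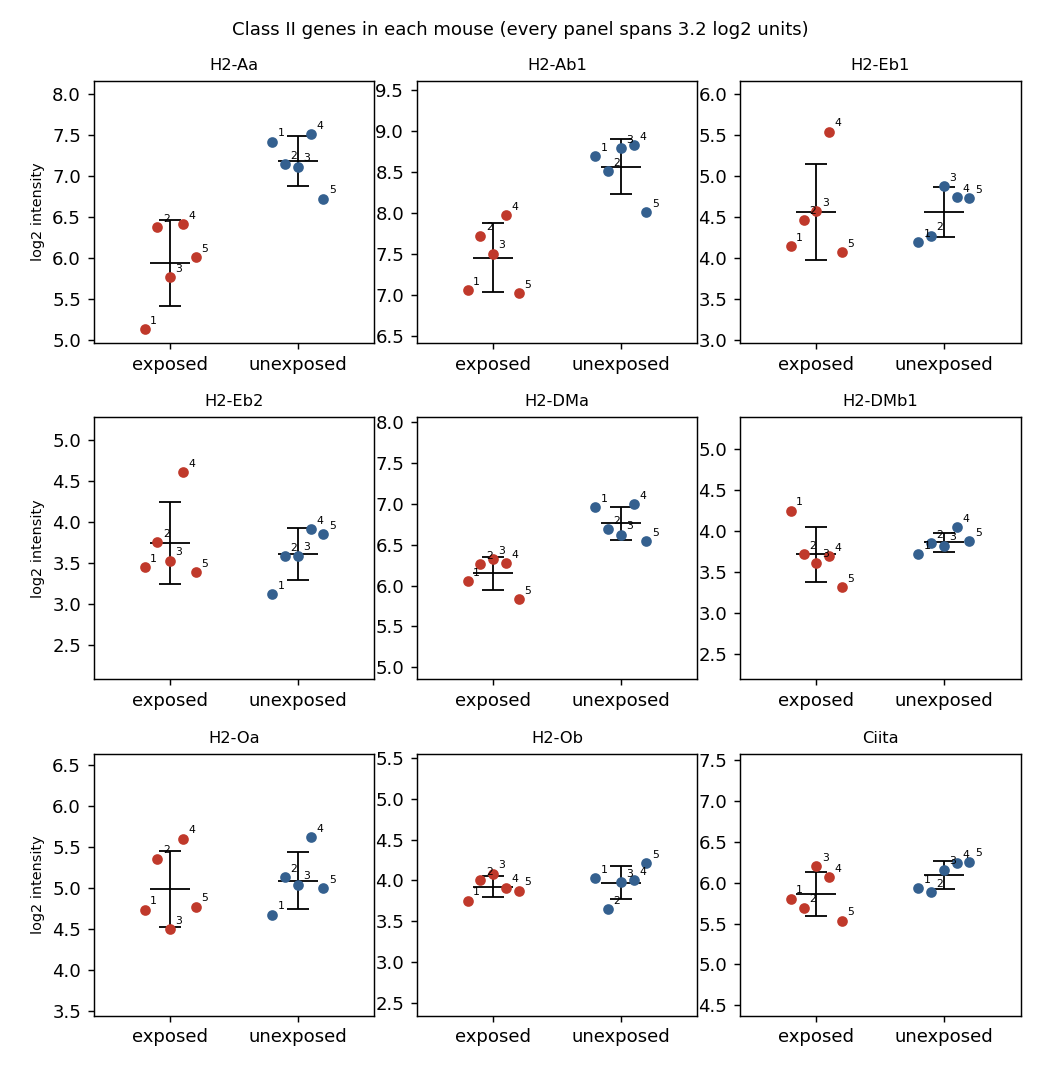
Log2 intensity of the 9 measured class II genes in each mouse, exposed (red) left of unexposed (blue), with the mouse number beside each point and bars for the mean ± SD (n = 5 per group). The groups are apart for H2-Aa, H2-Ab1 and H2-DMa and overlap for the other genes, with exposed mouse 4 highest of its group in 5 of the 9.

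**Figure D3:**
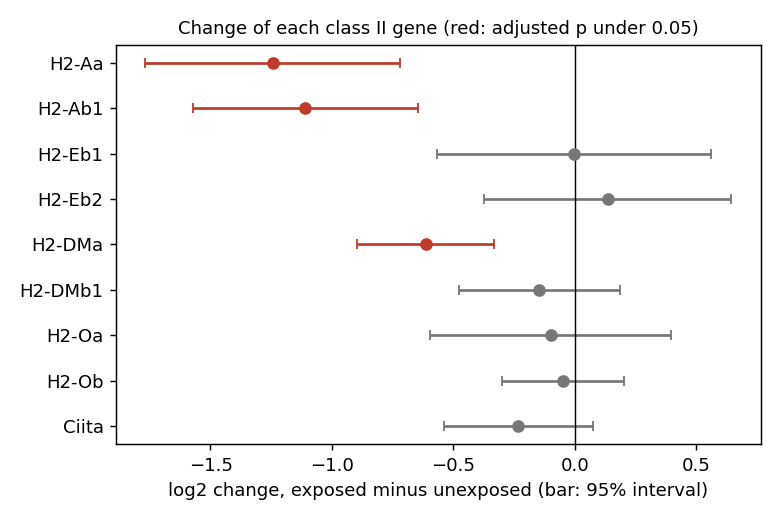
Log2 change of each class II gene (exposed minus unexposed, points) with its 95% interval from the limma fit (bars). H2-Aa, H2-Ab1 and H2-DMa, in red, lie below 0 with an adjusted p under 0.05, and the intervals of the other 6 genes cross 0.

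The exposed mice differed among themselves, but not in the same order for every member. Exposed mouse 4 was highest of the exposed mice in 5 of the 9 genes and exposed mouse 5 lowest in 6. Exposed mouse 3 was highest in 3 and exposed mouse 1 in 1. Exposed mouse 4 also had the highest mean of 7 T cell markers, 6.17 against 4.44 to 4.74 in the other exposed mice and 5.22 to 5.58 in unexposed mice, and of 9 B cell markers, 4.76 against 3.91 to 4.14 in the other exposed mice and 4.08 to 4.37 in unexposed mice. Unexposed mouse 5 was the lowest of its group for H2-Aa, H2-Ab1 and H2-DMa. It had also the lowest mean of 6 leukocyte markers in its group, 6.78 against 7.11 to 7.35 in the other unexposed mice. The part of these differences in the class II values was not tested, and H2-Aa, H2-Ab1 and H2-DMa passed the test without either mouse.

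By position on the reference chromosome 17, the members that fell did not stand together. The order of the genes is H2-Oa, H2-DMa, H2-DMb2, H2-DMb1, H2-Ob, H2-Ab1, H2-Aa, H2-Eb1, H2-Eb2 and H2-Ea, so that the adjacent pair H2-Ab1 and H2-Aa fell while H2-Eb1, next to them, did not pass, and H2-DMa lies apart. H2-DMb2, a second DM beta gene, changed by 0.11 (adjusted p = 0.88).

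Several proteases that prepare class II peptides rose. Of 12 genes of endosomal processing, 4 rose, against 5.85% of all genes, 1 fell, against 4.97%, and 7 did not pass. The median log2 change of the 12 was 0.20, with 4 changes below 0. Ctss, the protease that makes the last cuts of the invariant chain in dendritic cells and B cells, had 8.62, 10.1, 10.2, 9.34 and 9.24 in exposed mice, against 8.31, 8.13, 8.10, 8.12 and 7.50 in unexposed mice. All exposed mice lay above all unexposed mice, with exposed mouse 1 nearest, and the change was 1.46 (2.75-fold, SE 0.28, adjusted p = 0.00602). Lgmn, the asparagine-specific endoprotease legumain, rose 2.83-fold (log2 change 1.50, SE 0.19, adjusted p = 0.000515). Ctsb rose 1.95-fold (adjusted p = 0.0032), and Ctsl, which cuts the invariant chain in thymic epithelium and was named after its values were seen, rose by 0.55 (adjusted p = 0.0379). Ifi30, a thiol reductase that opens disulfide bonds of antigens, changed by 0.29 (adjusted p = 0.247). The fall was that of Cst3, which encodes the cathepsin inhibitor cystatin C, by 0.36 (adjusted p = 0.0322). Of the 10 fits that each left out a mouse, 3 still called Cst3, namely those lacking exposed mouse 1, exposed mouse 3 or unexposed mouse 4, and its adjusted p ran from 0.0209 to 0.0781.

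Of 12 genes of class II transcription, 0 rose, 1 fell (Irf4) and 11 did not pass, with a median log2 change of -0.09. Over all genes, 10.8% were called in either direction. Irf4, which encodes a transcription factor of dendritic cells, B cells and plasma cells, had 4.40, 4.46, 4.27, 4.81 and 4.88 in exposed mice, against 5.21, 5.20, 5.28, 5.47 and 5.21 in unexposed mice. The groups did not overlap, and the change was -0.71 (SE 0.13, adjusted p = 0.00486). Crebbp, a coactivator gene named after its values were seen, did not overlap between the groups either, with 9.476 to 9.721 in exposed mice and 9.723 to 9.834 in unexposed mice, but its change of -0.20 did not pass (adjusted p = 0.153). The NF-Y subunit gene Nfyc, also named after its values were seen, changed by -0.27 (adjusted p = 0.139). The RFX subunit gene Rfx5 changed by -0.09 (SE 0.13, adjusted p = 0.755).

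Interferon gamma is the main inducer of Ciita outside professional presenting cells, and its pathway was measured beside the members. Calls in this pathway are set beside the 5.85% of all genes that rose and the 4.97% that fell. Ifng itself was at 3.98 to 4.34 in exposed mice and 3.64 to 4.54 in unexposed mice (log2 change 0.04, adjusted p = 0.916). Of 9 signalling genes, Ifngr1, a receptor chain (0.41, adjusted p = 0.0185), and Il18, a cytokine that induces interferon gamma (0.56, adjusted p = 0.0308), rose and 7 did not pass, with a median of 0.12. Ifngr1 lost its call without unexposed mouse 1 (adjusted p = 0.0505), and Il18 was called in 4 of the 10 fits with a mouse left out, namely those lacking exposed mouse 1, exposed mouse 3, unexposed mouse 2 or unexposed mouse 5, with an adjusted p that ran between 0.0136 and 0.0732. Of 13 interferon gamma targets, 4 rose, 0 fell and 9 did not pass, with a median of 0.36. All that rose encode interferon-induced GTPases. Iigp1 had 8.38, 8.47, 8.16, 8.39 and 8.86 in exposed mice, against 7.16, 6.86, 6.67, 6.87 and 6.20 in unexposed mice, a 3.25-fold rise (log2 change 1.70, SE 0.18, adjusted p = 0.00017). Irgm2 rose by 0.96 (adjusted p = 0.00266), Igtp by 0.88 (adjusted p = 0.00072) and Gbp3, named after its values were seen, by 0.83 (adjusted p = 0.0238). The chemokine targets Cxcl9 (0.41, adjusted p = 0.625) and Cxcl10 (0.23, adjusted p = 0.635) did not pass.

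Class I presentation, the parallel pathway that shows peptides to CD8 T cells, had 0 of 17 genes called, against 10.8% of all genes in either direction. The median log2 change of the 17 was 0.11, with 15 changes above 0 and 2 below. At an unadjusted p under 0.05, 1 of them differed, the chaperone Calr (0.30, adjusted p = 0.126). B2m, the light chain shared by class I molecules, averaged 12.7 ± 0.10 in exposed mice and 12.6 ± 0.025 in unexposed mice (SD, n = 5 each; log2 change 0.04, adjusted p = 0.844). The peptide transporter gene Tap2 changed by 0.22 (adjusted p = 0.268). Among 8 co-stimulation genes 1 rose and 0 fell, with a median of 0.08. It was Cd80, a ligand of CD28 on presenting cells, with 6.96, 6.95, 7.29, 7.28 and 7.24 in exposed mice, against 5.89, 6.52, 6.23, 5.91 and 5.83 in unexposed mice (2.10-fold, adjusted p = 0.000834). None of 7 genes of the CD4 T cell side passed in limma, and 0 had an unadjusted p under 0.05 (median 0.001). Cd4, the coreceptor for class II, had 4.29, 5.04, 5.17, 5.42 and 4.29 in exposed mice, against 4.98, 5.14, 5.00, 5.09 and 4.89 in unexposed mice (adjusted p = 0.673). Lag3, another class II receptor (0.22, adjusted p = 0.395), and the co-stimulatory receptor gene Icos (-0.23, adjusted p = 0.562) had the smallest p of that list.

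**Figure D4:**
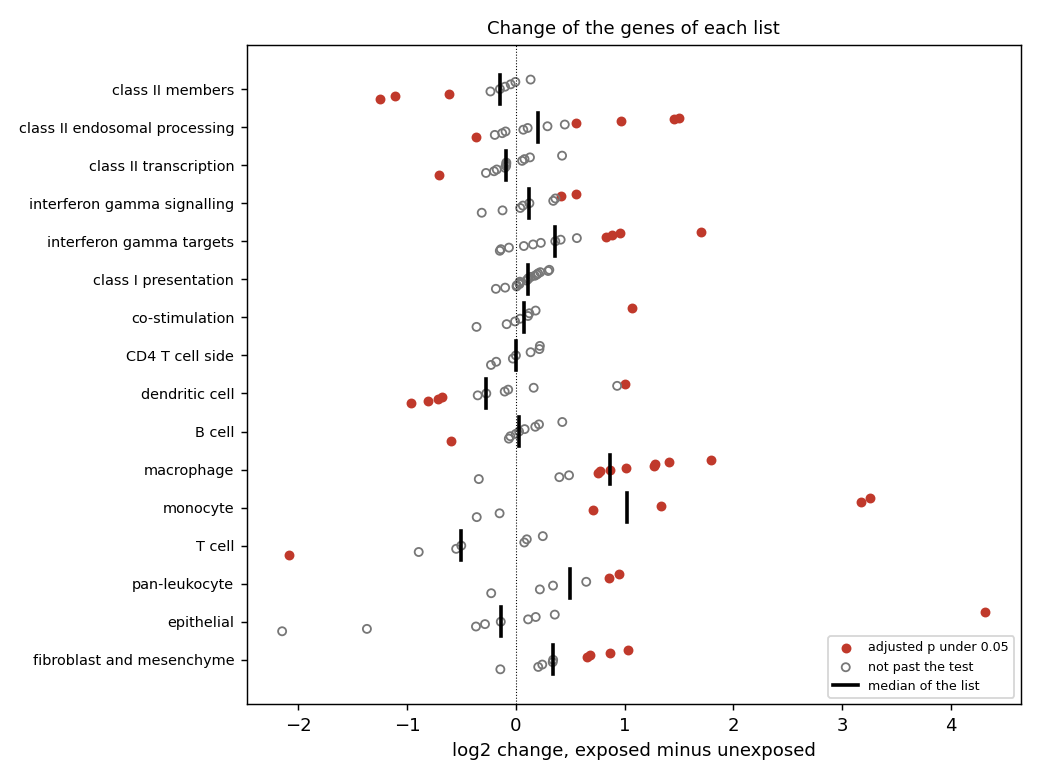
Log2 change (exposed minus unexposed) of every measured gene, 1 row of points per list, red where the adjusted p was under 0.05 and open otherwise, with a bar at the median of the list. The class II members that passed lie left of 0, while the genes of endosomal processing, interferon gamma targets, macrophages and monocytes that passed lie right of 0, apart from Cst3.

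Markers of the cells that carry class II moved in different directions, and their part in the class II values was not tested. Of 11 dendritic cell markers 4 fell, against 4.97% of all genes, and 1 rose, against 5.85%, with a median log2 change of -0.27. The list mean was 5.13 to 5.50 in exposed mice and 5.35 to 5.63 in unexposed mice. Xcr1, the chemokine receptor of cross-presenting dendritic cells, had 3.72, 3.61, 3.93, 4.04 and 3.97 in exposed mice, against 4.84, 4.60, 4.70, 4.52 and 4.63 in unexposed mice (change of -0.81, SE 0.11, adjusted p = 0.000767). Itgae, the integrin chain CD103 of those cells and of resident T cells, had 4.46, 4.04, 4.18, 4.44 and 4.41 in exposed mice, against 5.52, 5.23, 5.31, 5.17 and 5.14 in unexposed mice (-0.96, SE 0.11, adjusted p = 0.000368). Neither gene overlapped between the groups, against 5.06% of all genes separated in this direction. The group means of both lay under 5.52, the median of the gene means. The lysosomal hydrolase gene Naaa, named after its values were seen, fell by 0.68 (adjusted p = 0.0022). Cd209a, a lectin gene of monocyte-derived and conventional dendritic cells, fell by 0.71 (adjusted p = 0.024), but its probe sets disagreed, with changes of -1.31 and -0.11, and leaving out unexposed mouse 2, 3 or 4 (adjusted p 0.0564, 0.0594 and 0.0531), or exposed mice 1 and 3 together (0.0584), ended its call. The rise was that of Fscn1, an actin-bundling protein of mature dendritic cells and other motile cells (1.00, adjusted p = 0.00256). Flt3, the growth factor receptor of dendritic cell precursors, changed by -0.07 (adjusted p = 0.824). Clec10a, named after its values were seen, had every exposed mouse above every unexposed mouse, but its change of 0.93 did not pass (adjusted p = 0.115). Ccr7, also named after its values were seen, changed by 0.16 (adjusted p = 0.706). Of the 11 changes, 3 were above 0 and 8 below.

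Most macrophage and monocyte markers rose after chlorine. Of 11 macrophage markers 8 rose, against 5.85% of all genes, and 0 fell, with a median of 0.86. The list mean was 7.67 to 8.51 in exposed mice and 6.87 to 7.37 in unexposed mice. The lysosomal protein gene Cd68 rose 3.47-fold (adjusted p = 0.00418), the mannose receptor gene Mrc1 2.66-fold (adjusted p = 0.00667) and the Fc receptor gene Fcgr1 2.43-fold (adjusted p = 0.000593). Csf1r, the receptor on which macrophages depend, changed by 0.40 (adjusted p = 0.101). The lysozyme gene Lyz2, named after its values were seen, changed by -0.34 (adjusted p = 0.213), with 4 of 5 exposed mice below every unexposed mouse. Of 6 monocyte markers 4 rose, against 5.85% of all genes, and 0 fell, with a median of 1.02. The list means were 8.08 to 8.77 in exposed mice and 6.84 to 7.29 in unexposed mice. Chil3 (9.53-fold, adjusted p = 0.000377) and Plac8 (9.03-fold, adjusted p = 6.6e-05) led the list, with Vcan (2.52-fold, adjusted p = 0.000559). The 2 that did not pass, named after their values were seen, were the chemokine receptor gene Ccr2 (-0.36, adjusted p = 0.407) and F13a1, which encodes a coagulation factor chain (-0.15, adjusted p = 0.77). Chil3 has a close paralog, and Plac8 and Vcan are also made by other cells.

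Calls among lymphocyte markers are set beside the 10.8% of all genes called in either direction. Of 9 B cell markers 1 fell and 0 rose, with a median of 0.03. It was Blk, a kinase gene of B cells and some T cells (-0.59, adjusted p = 0.0188), which lost its call without unexposed mouse 1 (adjusted p = 0.0501). Of 7 T cell markers 1 fell and 0 rose, with a median of -0.50. Cd3g, a chain of the T cell receptor complex, had 4.27, 3.29, 2.94, 6.11 and 3.96 in exposed mice, against 6.09, 6.41, 6.20, 6.39 and 5.89 in unexposed mice (change of -2.08, SE 0.47, adjusted p = 0.0167). Exposed mouse 4 alone stood among the unexposed mice, and without exposed mice 1 and 3 the call was lost (-1.74, adjusted p = 0.0527). Of 6 general leukocyte markers 2 rose and 0 fell, with a median of 0.50 and list means of 6.93 to 8.07 in exposed mice and 6.78 to 7.35 in unexposed mice. Cd53 (0.94, adjusted p = 0.0406) and Tyrobp (0.86, adjusted p = 0.0385) were those that rose, and leaving out mice often ended these calls. With a mouse left out, Cd53 was called in 3 of 10 fits (lacking exposed mouse 1, exposed mouse 5 or unexposed mouse 3, at adjusted p-values between 0.0105 and 0.0936) and Tyrobp in 2 (lacking exposed mouse 1 or exposed mouse 5, adjusted p up to 0.0857). Ptprc, the common leukocyte antigen, had 6.77 to 8.00 in exposed mice and 6.63 to 7.40 in unexposed mice (0.22, adjusted p = 0.628). Of 9 epithelial markers 1 rose, Krt14 (4.31, adjusted p = 6.77e-06), and Epcam changed by -0.28 (adjusted p = 0.592). Scgb1a1, the secretoglobin of club cells, had 12.43, 12.26, 6.89, 11.01 and 11.35 in exposed mice, all below the 12.88 to 12.98 of unexposed mice, but its change of -2.15 did not pass (adjusted p = 0.14). Foxj1, a factor of ciliated cells, changed by -1.37 (adjusted p = 0.127), with 4 of 5 exposed mice below every unexposed mouse. Both were named after their values were seen. Of 9 mesenchymal markers 4 rose, the collagen genes Col3a1 (1.04, adjusted p = 0.00295) and Col1a1 (0.87, adjusted p = 0.0191), Pdgfra (0.68, adjusted p = 0.0206) and, named after its values were seen, Vim (0.65, adjusted p = 0.0307). The call of Col1a1 ended when exposed mouse 4 was left out (adjusted p = 0.0501), and that of Pdgfra when unexposed mouse 1 or 5 was (adjusted p 0.054 and 0.0523).

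**Figure D5:**
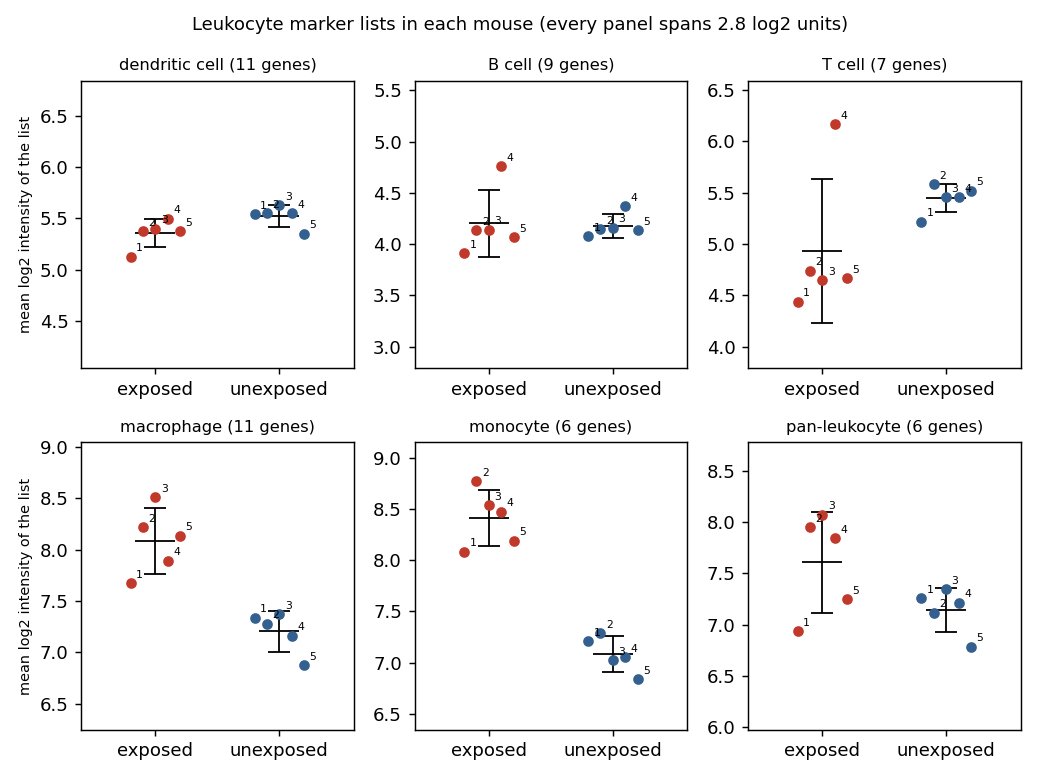
Mean log2 intensity of 6 leukocyte marker lists in each mouse, exposed (red) left of unexposed (blue), with mouse numbers and bars for the mean ± SD (n = 5 per group). Macrophage and monocyte means are higher in all exposed mice, and exposed mouse 4 stands above the other exposed mice for T and B cell markers.

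The genes nearest to the classical class II pattern were sought among 11086 other genes of at least median intensity. Each gene was taken as deviations from its own mean over the 10 mice and set against the mean deviations of H2-Aa, H2-Ab1 and H2-Eb1, which ran from -0.93 in exposed mouse 1 to 0.65 in unexposed mouse 4. The smallest root mean square distances, in log2 units, were those of Neurl3 (0.192), Wdfy4 (0.226), Bhlhe41 (0.234), Cdr1 (0.248), Herpud1 (0.254) and Cxcr6 (0.257), against a median of 0.553 over all genes ranked. Wdfy4 is needed for cross-presentation by dendritic cells in mice, Bhlhe41 encodes a transcriptional repressor, Herpud1 a protein of endoplasmic reticulum protein disposal and Cxcr6 a chemokine receptor of T cells and innate lymphoid cells. Neurl3, the nearest, had 5.05, 5.97, 6.02, 6.42 and 5.15 in exposed mice, against 6.40, 6.13, 6.62, 6.50 and 6.39 in unexposed mice. It was lowest in exposed mice 1 and 5 and highest of the exposed in mouse 4. The ranking selects for this order of mice, so it is no separate observation. Since these genes were ranked on the same mice, their changes are given as descriptions: -0.68 for Neurl3, -0.57 for Wdfy4, -0.95 for Bhlhe41, -0.74 for Cdr1, -0.73 for Herpud1 and -0.92 for Cxcr6.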

How the data were processed

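The deposited table holds log2 intensities per probe set. Per the submitters' processing notes the authors used Partek 6.6 and RMA (robust multi-array average). That the base is 2 rests on the method and on how far the values reach, and its settings and filters are not given. All 41345 probe sets were used as deposited, and no other sample columns were present (0).

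Names came from the platform annotation, in which 23521 probe sets had 1 symbol, 1814 had several and 16010 were not listed. Of the symbols, 23328 were found in RefSeq (GRCm38.p6) by gene identifier and 0 changed. A gene's value was the mean of its single-symbol probe sets (22180 genes, 1082 with more than 1 probe set). Every measured member had 1.

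The group test was that of limma 3.58.1 under R 4.3.3 (lmFit, eBayes, two-sided, no covariate), adjusted by Benjamini-Hochberg over all genes, with calls at an adjusted p under 0.05. The test was tested on simulated data. Mice are separate animals, so the spread between arrays is biological and technical. Members and lists were chosen with earlier results of these data known. All members were named, then up to 3 rises and 3 falls per list (where none passed, the 2 smallest p), Ptprc, Flt3, Csf1r, Cd4, Ifng, Rfx5, Epcam, Col1a1 and B2m, and the 6 genes nearest in pattern. Cd74, part of the intended pattern, was left out since its probe set names more than 1 gene. Alternatives were quantile normalization, array median centring, leaving out dim genes, the brightest probe set, trend and robust eBayes, array weights, a mouse-number block, each mouse left out and, added after the data were seen, the fit without exposed mice 1 and 3. Figures used Python 3.11.15 and matplotlib 3.10.9.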

Additional observations from a re-analysis of the deposited data

Results flagged for a closer look

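Among the genes named, 114 groups of 5 mice were searched for a mouse far from the other 4, and 9 were found. Chance alone marks about 1 group in 20. The number given for each is the gap to the nearest mouse over the range of the group. In 8 of the 9 the mouse was unexposed mouse 5, lowest of its group. It was far below the others for the macrophage receptor gene Csf1r (gap 0.931 of the range), for the repressor gene Bhlhe41 (0.838) and for the mannose receptor gene Mrc1 (0.77). The same held for Ptprc (0.762), Ctsb (0.757), Ctss (0.747), Tyrobp (0.725) and Blk (0.712). Among exposed mice only Cd209a was marked, with exposed mouse 1 at 5.81 and the others at 6.35 to 6.43 (gap 0.865 of the range). No class II member was marked in either group.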

How the results depend on the processing

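The falls of H2-Aa, H2-Ab1 and H2-DMa passed the test under all 18 alternatives, with log2 changes of -1.36 to -0.92, -1.25 to -0.99 and -0.67 to -0.54 and an adjusted p of at most 0.0213, 0.0257 and 0.0326, and no other member passed under any. H2-Eb1 turned above 0 with quantile normalization (0.023), array median centring (0.026) and without exposed mice 1 and 3 (0.129), and ran from -0.249 to 0.119 with 1 mouse left out. H2-Oa was 0.152 without exposed mice 1 and 3 and -0.252 to 0.033 with 1 mouse left out, H2-Eb2 -0.080 to 0.226 and H2-Ob -0.129 to 0.012. Other uncalled genes turned too: Flt3 to 0.0125 with array weights and 0.11 without exposed mice 1 and 3 (leave-one-out range -0.152 to 0.0595), Rfx5 to 0.0052 without those mice (-0.156 to 0.00796) and Ifng to -0.00169 with array weights (-0.0772 to 0.15). Leaving out dim genes gave 3 listed genes called lower, against 8, since Irf4, Xcr1, Itgae, Blk and Cd3g were among the dim ones and were not tested. With 1 mouse left out, genes called lower numbered 723 to 1407, against 1102, lowest without unexposed mouse 4 (723) or 1 (725). No pairing by mouse number was seen, though 5 mice per group cannot settle this. Deviations of same-numbered mice correlated at -0.11 to 0.227, and in 0 of 5 exposed mice best with its own number. With the mouse number as a replicate block, 1026 genes were called higher and 854 lower, and 3 members lower. The block raised the SE of H2-DMb1 and H2-Ob and lowered it for the other members, for H2-Ab1 from 0.211 to 0.145. H2-Ea (-0.932), which was added after its values were seen, passed in limma under the block (adjusted p = 0.0128). The block ended the calls of Cst3, Ifngr1 and Blk (adjusted p = 0.0858, 0.0569 and 0.0538). Under the block Wdfy4 came under the threshold and Cdr1 went over it. Both were ranked on these same mice, so their p-values cannot serve as tests. Without scanner files, signal over background is unknown. This limits what can be said of H2-Eb1, H2-Eb2, H2-DMb1, H2-Oa and H2-Ob, and of Irf4, Xcr1, Itgae, Blk and Cd3g. The cause of these shifts was not tested.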

Other observations

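Beyond the class II members, 26 further genes with a symbol beginning H2- had a probe set of their own, H2-DMb2 and H2-Ea included. They were looked at after the data were seen. Of these, 1 was called higher in exposed mice, 1 lower, and 24 did not pass, against 10.8% of all genes called in either direction. H2-Ke6, a gene of the same region that encodes a dehydrogenase and not a presenting molecule, averaged 7.64 ± 0.11 in exposed mice and 8.27 ± 0.13 in unexposed mice (SD, n = 5 each; log2 change -0.63, adjusted p = 0.00155), and kept its call with any mouse left out. H2-Q10, a secreted class I molecule made mainly in liver, changed by 0.64 (adjusted p = 0.0392), but its probe sets disagreed. One probe set was at 8.09 to 8.96 in exposed mice and 6.26 to 7.24 in unexposed mice, and the other at 3.63 to 4.82 in exposed mice and 4.64 to 4.97 in unexposed mice. With a mouse left out, H2-Q10 was called in 2 of 10 fits, those lacking exposed mouse 1 or unexposed mouse 4, and it shares much of its sequence with other Q-region genes.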
